A study of Mus musculus with 33 samples.

Results

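The frontal region of the mouse head was compared between embryonic days 11 and 12 (E11 and E12), across all genes. The members are the 3 libraries labelled E12 and the 3 labelled E11, chosen by stage label alone, 6 of the 33 libraries of the series. The series sampled tissue labelled frontal bone of the calvaria at 11 stages from E8.5 to E14.5, with 3 libraries of polyA RNA at each stage. All 6 libraries carry the same tissue label and differ in the labels only by stage. No strain, sex, genotype or treatment is given, and the labels do not say whether a library is 1 embryo or a pool, so p-values measure only the spread between libraries. The title of the series names a citrate-carrying vesicle strategy for bone mineralization. RNA was extracted with TRIzol, a column kit or other kits, per the labels, which do not say which kit served which library.

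The frontal bone forms within the skull vault directly from mesenchyme, without a cartilage model. Its cells descend from cranial neural crest, migrate over the forebrain and eye, condense above the orbit, and switch on Runx2 and then Sp7, the transcription factors of the osteoblast lineage. At these stages no mineralized bone is present, and the mesenchyme lies between surface ectoderm and forebrain, close to the lens and retina. Sonic hedgehog from the ventral midline, and WNT, FGF and BMP ligands from ectoderm and brain, are known regulators of this mesenchyme.

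Column totals ran from 14516518 to 18310604 counts, and 17361 genes with enough counts in the 6 libraries were tested. Levels are given as CPM, counts scaled to a fixed library total, after TMM scaling, which sets libraries to a common centre. The 3 E11 libraries were closely alike, with correlations of log2 CPM of 0.9919 to 0.993 across genes. The E12 libraries, named E12a, E12b and E12c by the letters of their columns, were less alike, with 0.9856 for E12a and E12b, 0.9741 for E12b and E12c, and 0.9555 for E12a and E12c. Library E12c stood nearest to E11, with correlations of 0.9575 to 0.9612 with the E11 libraries. These were above its correlation with E12a of its own stage and below that with E12b. Farthest from E11 was E12a, at 0.8805 to 0.8866. As for the tissue label, osteoblast genes were at low levels at both stages: Ibsp had 3 counts in all at E11 and 2 at E12, and Sp7 measured 0.853, 1.19 and 1.13 CPM at E11 and 1.20, 1.37 and 1.76 CPM at E12. Mesenchymal genes such as Col1a1 were abundant, beside neuronal, lens, retinal, epidermal, endothelial and red cell genes. In such bulk samples, fewer cells of a type and less RNA per cell cannot be told apart.

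The E12 libraries carried a gene length trend against the E11 libraries. The exonic length of each gene was deposited with the counts, and each library was set against the E11 mean. Of 10 equal groups of genes by exonic length, the shortest (median 733 bases) shifted upward in each E12 library: the median log2 difference was 1.13 in E12a, 0.81 in E12b and 0.39 in E12c. In the longest group (median 12041.5 bases) it was -1.04, -0.96 and -0.51. The change fell with each doubling of length by 0.37 in E12a, 0.31 in E12b and 0.14 in E12c on the log2 scale. The slopes of the E11 libraries lay between -0.006 and 0.011, around 0 by construction, since their own mean was the reference. The stages did not overlap in slope, with a mean difference of -0.27 (exact permutation test over libraries, two-sided, p = 0.1, the smallest that 3 against 3 allows).

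**Figure D1:**
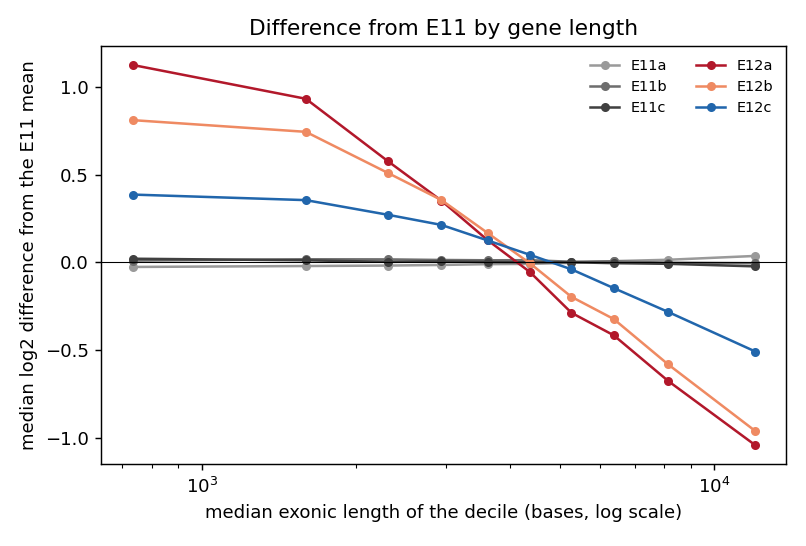
Median log2 difference from the E11 mean (vertical axis) in 10 groups of genes by exonic length in bases (horizontal axis, log scale), with 1 line for each library. The 3 E11 lines stay near 0, with their own mean as the reference. The E12 lines fall from 1.13, 0.81 and 0.39 at the short end to -1.04, -0.96 and -0.51 at the long end.

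The trend was also present when each library was set against the other stages of the series. The E12 slopes then ran from -0.337 to -0.106, with a mean of -0.240. Those of E11 were positive, from 0.053 to 0.070 with a mean of 0.059. Those of the 27 libraries of stages other than E11 and E12 ran from -0.142 to 0.125. Across 14543 protein-coding genes, the difference of E12a from E11 had a Spearman correlation of -0.59 with exonic length, -0.64 with the length of the main transcript, -0.61 with coding length, -0.34 with untranslated length, -0.45 with genomic span and 0.12 with GC content. These are correlations across genes of 1 library, which are not independent replicates. The origin of the trend was not tested: all 3 E12 libraries carry it, so the trend and the stage cannot be fully told apart.

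**Figure D2:**
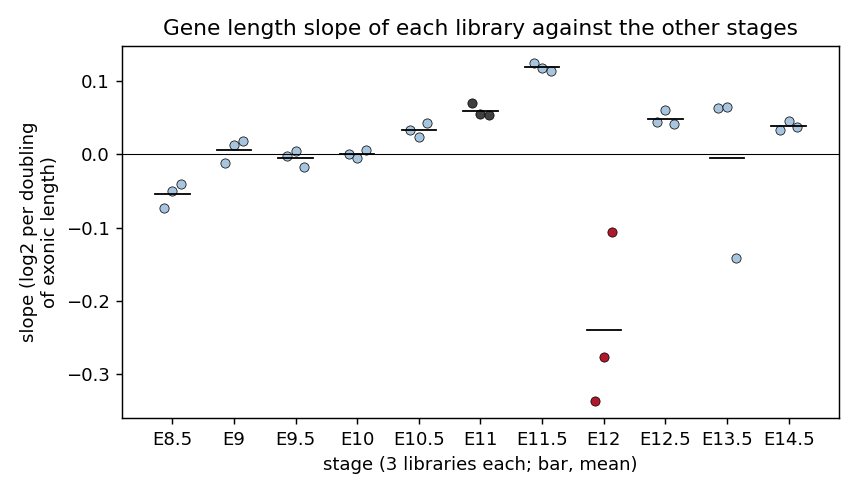
Slope of the log2 difference from the other stages on log2 exonic length (vertical axis) for each of 33 libraries, by stage (horizontal axis; points are libraries and bars are means of 3). The E12 libraries lie between -0.337 and -0.106, and 1 other library, at E13.5, lies lower than the mildest of them.

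Counts over gene lists are therefore given from 3 fits with edgeR's quasi-likelihood test, and single genes from stage alone where no other fit is named, each with Benjamini-Hochberg adjustment over all genes tested at a threshold of 0.05. The first has stage as its only term. The second removes from each library a smooth trend on exonic length. The removal is not complete for other measures of length. After it, the difference of E12a from E11 still had a Spearman correlation of -0.28 with transcript length and -0.34 with coding length. For E12b these were -0.27 and -0.29, and for E12c -0.17 and -0.19. The third adds the length slope of each library as a covariate beside the stage, which asks for a stage difference at a slope of 0. It leaves 3 residual degrees of freedom and extrapolates, since no E12 library has a slope near 0.

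With stage alone, 9533 genes differed (54.9% of those tested): 4787 were higher at E12 (27.6%) and 4746 lower (27.3%). Counts over gene lists are to be read beside these shares of all genes. The shares varied with exonic length. With stage alone, 48.4% were higher and 17.2% lower in the shortest of the 10 length groups. These shares were 51.8% and 12.3% in the next shortest group, and 2.82% and 69.2% in the longest. Among the genes that differed with stage alone, 2241 rises and 2483 falls were at least 2-fold. With the length trend removed, 48.3% differed: 4772 genes were higher (27.5%) and 3622 lower (20.9%), of which 3391 and 2988 were called the same way with stage alone, and 121 genes were called in opposite directions. With the slope as covariate, 1015 genes were higher (5.85%) and 913 lower (5.26%). A further fit that removed a trend on transcript length called 47.4% of genes. Of the genes named here that passed in the first 2 fits, Abcc9, Bmpr1b, Cox6c2, Dst, Notch3, Smpd3, Ttn, Tyr, Vcan and Zbtb20 did not pass in that one. In all 4 fits together, 315 genes were called higher and 408 lower. The libraries of the stages did not overlap for 67.4% of the genes tested. Rises made up 50.2% of the calls with stage alone, 35.9% when libraries were scaled by their totals alone, which gave 3181 rises and 5683 falls, and 56.9% with the length trend removed. The median change of all genes was -0.02 with stage alone and -0.27 with totals alone, a shift of the whole scale.

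Library E12a was the E12 library farthest from E11 for 68.5% of the called genes, E12b for 25.6% and E12c for 5.87%. Each fit without a library applied the count filter anew, so that 17752 to 17982 genes were tested and a list could gain members. Leaving out a library gave 2891 to 6278 rises and 3018 to 6396 falls, the highest of each without E12c. Rises numbered 2891 without E11a, 3169 without E11b and 3128 without E11c. Falls numbered 3126 without E11a and 3018 without E12b.

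Shh and several other genes of the hedgehog pathway were lower at E12 with stage alone. Shh (chr5:28456815-28467256, minus strand in GRCm38), which encodes the secreted ligand, measured 17.8, 22.2 and 20.9 CPM at E11 and 2.41, 3.12 and 3.62 CPM at E12. All E12 libraries lay far below all E11 libraries, a 6.58-fold lower level (log2 -2.72 ± 0.19, edgeR's quasi-likelihood test, Benjamini-Hochberg adjusted p = 0.00137). The change was -2.96 with the length trend removed, and with the slope as covariate -2.24 (adjusted p = 3.86e-04).

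Ptch1, the hedgehog receptor and itself a target gene, measured 147, 145 and 141 CPM at E11 and 27.6, 39.1 and 55.4 CPM at E12. The order of the E12 libraries followed their length slopes. The log2 change of -1.82 with stage alone (3.53-fold lower) became -0.87 with the trend removed and -0.80 with the slope as covariate. Hhip, a ligand-binding antagonist induced by the pathway, measured 8.83, 8.95 and 8.08 CPM at E11 and 2.33, 1.67 and 2.98 CPM at E12, and passed the threshold in the first 2 fits but not with the slope as covariate (log2 -1.26, adjusted p = 0.0616). Gli1, the transcription factor that reports pathway activity, measured 52.2, 60.4 and 54.2 CPM at E11 and 20.9, 19.1 and 32.6 CPM at E12 and likewise passed in the first 2 fits (log2 -1.20 ± 0.21 with stage alone) and not in the third (-0.38, adjusted p = 0.268). Gas1, a co-receptor, was higher with stage alone (log2 0.68 ± 0.17) but not with the length trend removed (0.45, adjusted p = 0.0582), nor without E11a or E11c (adjusted p up to 0.0678). Smo, the signal transducer, measured 188, 202 and 195 CPM at E11 and 104, 135 and 229 CPM at E12 and did not pass with stage alone, but was lower without E12c (adjusted p down to 2.01e-04) and higher with the slope as covariate (0.90).

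Of the 12 hedgehog genes tested, 7 were lower and 1 higher, with a median change of -0.74 against -0.02 for all genes. Removal of the length trend left 5 lower and 0 higher (median -0.34, all genes 0.06), and with the slope as covariate 3 were lower and 3 higher (median 0.12, all genes -0.02). Leaving out E12c gave 11 lower and 2 higher, in a fit where members with too few counts to pass the filter otherwise were also tested, and the other single omissions 5 or 6 lower and 0 or 1 higher.

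Nkx2-2, Foxa2 and Foxa1, transcription factors of the ventral forebrain, floor plate and midline, were also lower. Nkx2-2, a factor of ventral neural progenitors, measured 7.97, 8.36 and 9.72 CPM at E11 and 0.226, 0.304 and 0 CPM at E12, with no count in E12c. Its log2 change was -5.72 ± 0.51 (edgeR adjusted p = 0.00155) and -5.97 with the length trend removed. An antisense gene, Nkx2-2os, overlaps its exons, and the strand setting of the counting is not given in the sources used here. Foxa2, the floor plate factor, measured 4.56, 4.53 and 4.24 CPM at E11 and 0.753, 0.152 and 0.106 CPM at E12 (log2 -3.78 ± 0.52, adjusted p = 0.00292). Foxa1, its relative in midline and endoderm, measured 7.92, 8.30 and 8.44 CPM at E11 and 3.16, 2.96 and 2.45 CPM at E12. None of these 3 overlapped between stages, and each was lower in all 3 fits.

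Neuronal genes were lower as well. Dcx, a microtubule protein of migrating young neurons, measured 426, 370.5 and 395 CPM at E11 and 118, 107 and 155 CPM at E12, and Nefl, the light neurofilament subunit, 57.4, 56.4 and 57.6 CPM at E11 and 23.1, 22.3 and 19.3 CPM at E12. Isl1, a transcription factor of cranial sensory and motor neurons, measured 45.5, 45.6 and 44.9 CPM at E11 and 13.9, 15.9 and 15.7 CPM at E12. The stages did not overlap for any of the 3, and the E12 libraries lay close together for Nefl and Isl1. Their log2 changes were -1.65 ± 0.17, -1.41 ± 0.12 and -1.58 ± 0.12 with stage alone and -0.77, -1.55 and -1.59 with the length trend removed. The change in Dcx, whose exons span 12647 bases, was thus smaller once the trend was taken out, while those of Nefl (3380 bases) and Isl1 (3959 bases) were of like size in both fits. Map2, a dendritic microtubule protein of 16456 exonic bases, went from -1.45 ± 0.21 to -0.37, lower and past the threshold in both.

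Of the 20 neuronal genes tested, 14 were lower and 0 higher with stage alone (median -0.91), 14 lower and 1 higher with the length trend removed (median -0.59), and 15 lower and 0 higher with the slope as covariate (median -0.73). Without E12c, 15 were lower and 4 higher. Tubb3, the neuronal tubulin, did not pass the threshold in any of the 3 fits and measured 1078, 1165 and 1121 CPM at E11 and 1352, 1687 and 1127 CPM at E12, and it was higher without E12c (adjusted p down to 0.00292).

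Genes of neural progenitors were split. Vim, an intermediate filament of progenitors and mesenchyme, measured 1032, 1091 and 1044 CPM at E11 and 2405, 2286 and 1783 CPM at E12 (log2 1.03 ± 0.17). Sox3, a pan-neural progenitor factor, measured 44.5, 50.6 and 44.1 CPM at E11 and 99.8, 72.7 and 83.6 CPM at E12 (log2 0.88 ± 0.15). Both were higher in each of the 3 fits and without overlap. Lower were Lhx5, Nkx2-1 and Otx1, factors of forebrain regions, at -0.72 ± 0.12, -0.58 ± 0.12 and -0.56 ± 0.16, together with Notch1, a receptor of 14232 exonic bases, at -1.70 ± 0.38. With the slope as covariate they measured -0.49, -0.46, -0.05 and -0.02, none past the threshold. Otx1 lost its call without E11b, E11c or E12b (adjusted p up to 0.0856). Fabp7, the radial glial fatty acid binding protein, was higher with stage alone (0.94 ± 0.27) but not with the length trend removed (0.18, adjusted p = 0.315), nor without E11a, E11b, E11c or E12b (adjusted p up to 0.0720). In all, 7 of 18 tested progenitor genes were higher and 5 lower, beside 27.6% and 27.3% of all genes. The counts were 6 and 6 with the length trend removed, and 5 and 0 with the slope as covariate. Higher calls numbered 4 without E11a or E11c, and lower calls numbered 3 without E11c or E12b.

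Several transcription factors of the cranial mesenchyme were higher at E12. Msx2, a homeobox factor of the skull vault whose dosage is known to affect suture closure, measured 10.6, 13.6 and 14.2 CPM at E11 and 51.9, 45.4 and 37.3 CPM at E12 (log2 1.81 ± 0.18, edgeR adjusted p = 0.00174). Its relative Msx1 measured 36.0, 37.4 and 36.4 CPM at E11 and 68.5, 70.1 and 68.4 CPM at E12 (log2 0.91 ± 0.11), with nearly equal E12 libraries. Twist2, a basic helix-loop-helix factor of dermal and skeletal mesenchyme, measured 6.72, 7.49 and 7.72 CPM at E11 and 30.1, 25.4 and 19.5 CPM at E12 (log2 1.77 ± 0.19). En1, a homeobox factor expressed in supraorbital mesenchyme, measured 3.61, 2.64 and 2.86 CPM at E11 and 6.85, 7.98 and 9.20 CPM at E12 with E12c highest, whereas E12a was highest for Twist2. No stage overlapped for these 4, and the rises held in all 3 fits: with the slope as covariate they were 1.24 for Msx2, 0.90 for Msx1, 1.03 for Twist2 and 1.87 for En1.

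Osr1 and Foxc1, factors of head mesenchyme and meninges, were also higher in all 3 fits, at 1.25 ± 0.19 and 0.78 ± 0.15 with stage alone. Twist1, the factor of Saethre-Chotzen syndrome, measured 32.5, 42.4 and 31.4 CPM at E11 and 75.7, 59.7 and 64.2 CPM at E12 and rose with stage alone (log2 0.91 ± 0.16) but not with the length trend removed (0.31, adjusted p = 0.150). Prrx2, a paired-related homeobox factor, rose in the first 2 fits (1.29 ± 0.25 with stage alone) and not in the third (0.05, adjusted p = 0.900).

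Ebf3, a helix-loop-helix factor of the early B-cell factor family, moved the other way. It measured 91.1, 87.4 and 87.8 CPM at E11 and 37.7, 32.8 and 41.6 CPM at E12 and was lower in all 3 fits, at -1.25 ± 0.13, -0.62 and -0.997. Its relative Ebf2 fell in the first 2. Zeb2, a factor of migrating neural crest with 20203 exonic bases, fell with stage alone (-1.17 ± 0.25) and measured 0.05 with the length trend removed (adjusted p = 0.732). Prrx1 and Alx4, frontal mesenchyme factors, did not pass with stage alone: Prrx1 measured 109.9, 95.4 and 106 CPM at E11 and 118, 109.9 and 114 CPM at E12, and Alx4 61.1, 66.8 and 63.9 CPM at E11 and 25.0, 38.8 and 67.1 CPM at E12. Prrx1, with 11066 exonic bases, was higher with the length trend removed (0.93, adjusted p = 0.00300) and on transcript length (0.63), and measured 0.11 with the slope as covariate (adjusted p = 0.699). Alx4 at E12 spanned a wide range in the order of the length slopes and reached the E11 level in E12c, and it was lower without E12c (adjusted p down to 2.54e-04) and higher with the slope as covariate (0.88). Of the 34 mesenchymal factors tested, 15 were higher and 10 lower (median 0.23), beside 27.6% and 27.3% of all genes. The counts were 13 and 4 with the length trend removed and 12 and 2 with the slope as covariate (median 0.29). Scaling by totals alone gave 10 higher and 11 lower, so the balance of the list changed side.

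**Figure D3:**
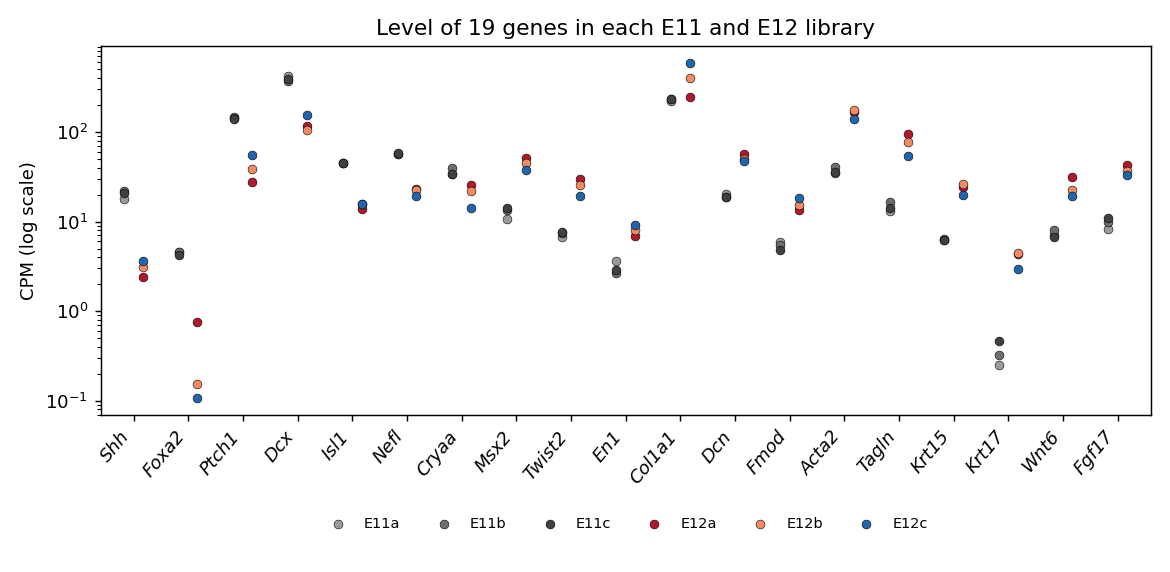
Level in CPM (vertical axis, log scale) of 19 genes (horizontal axis) in the 3 E11 libraries (greys, left of each name) and the 3 E12 libraries (colours, right of each name), 1 point for each library. The stages do not overlap for these genes, and the E12 points of Col1a1 spread from 248 to 595 CPM.

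The regulators that define the osteoblast lineage did not pass the threshold with stage alone. Runx2, the lineage's first required factor, measured 12.2, 10.1 and 10.2 CPM at E11 and 8.96, 7.68 and 9.84 CPM at E12 (log2 -0.29 ± 0.16, edgeR adjusted p = 0.158, and 0.30 with the length trend removed). It was called lower on transcript length (-0.64, adjusted p = 0.0207), which for Runx2 is 1791 bases against 8837 exonic bases. Sp7, which acts after it, gave log2 0.47 ± 0.29 (adjusted p = 0.207). Alpl, tissue non-specific alkaline phosphatase, measured 10.48, 10.51 and 10.9 CPM at E11 and 13.3, 10.6 and 12.1 CPM at E12, and Dlx5, a homeobox factor upstream of Sp7, 13.9, 16.2 and 12.7 CPM at E11 and 17.5, 15.2 and 19.0 CPM at E12. Both overlapped between stages. Dlx6, the neighbour of Dlx5 in the genome, measured 6.62, 6.47 and 5.73 CPM at E11 and 19.9, 13.8 and 8.94 CPM at E12, higher with stage alone (log2 1.17 ± 0.28) and with the trend removed (0.77), and -0.17 with the slope as covariate (adjusted p = 0.769). Spp1, osteopontin, was higher with stage alone (1.24 ± 0.33), at under 10 CPM in each library, but not with the trend removed, nor without E11a, E11b or E12b (adjusted p up to 0.0616).

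Postn, a periosteal matrix protein, was lower in the first 2 fits. It measured 74.2, 69.2 and 65.5 CPM at E11 and 33.5, 35.1 and 43.3 CPM at E12 (log2 -0.90 ± 0.14), without overlap between stages. Phex, a peptidase gene of mature osteoblasts, was below 1 CPM in all libraries and lower with stage alone (-2.48 ± 0.66), a call lost without E11b or E11c (adjusted p up to 0.0551). Of 20 osteoblast genes tested, 8 were higher and 3 lower (median 0.37), beside 27.6% and 27.3% of all genes. The counts were 8 and 3 with the length trend removed, 5 and 0 with the slope as covariate, and 5 and 5 with totals alone. Without E11a 5 were higher, and without E12c 5 were lower.

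Many fibrillar matrix genes were higher at E12, and more of them once length was taken into account. Col1a1, the main chain of bone and dermal collagen, measured 221, 233 and 235 CPM at E11 and 248, 398 and 595 CPM at E12. E12a lay just above E11 and E12c well above it. Its length group (genes of 5780 to 7133 exonic bases) had medians in the same order, at -0.42 in E12a, -0.32 in E12b and -0.15 in E12c. The log2 change was 0.85 ± 0.29 with stage alone (edgeR adjusted p = 0.0381), a call lost without E11a, E11b, E11c or E12b (adjusted p up to 0.116). It was 1.19 with the length trend removed (adjusted p = 0.00558) and 2.10 with the slope as covariate (adjusted p = 1.01e-05). Col1a2 and Col3a1, its partner chain and the collagen of loose connective tissue, showed the same order of E12 libraries, with Col1a2 at 285, 302 and 289 CPM at E11 and 387, 508 and 645 CPM at E12 and Col3a1 at 537, 555 and 538 CPM at E11 and 722, 928 and 1101 CPM at E12. They were higher in all 3 fits, at 0.82 ± 0.20 and 0.75 ± 0.18 with stage alone and 1.67 and 1.42 with the length trend removed. With stage alone Col1a2 did not pass without E11a or E11c (adjusted p up to 0.0536), nor Col3a1 without E11a or E11c (adjusted p up to 0.0543).

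Small proteoglycans that bind collagen fibrils rose too. Dcn, decorin, measured 20.4, 18.6 and 18.7 CPM at E11 and 57.4, 50.5 and 47.0 CPM at E12 (log2 1.42 ± 0.13), and Fmod, fibromodulin, 5.92, 5.50 and 4.76 CPM at E11 and 13.3, 15.4 and 18.6 CPM at E12 (log2 1.55 ± 0.18). Neither overlapped between stages, and both were higher in all 3 fits. Aspn, asporin, and Mgp, a matrix protein that inhibits calcification, were at lower levels, up to 5.12 CPM and 12.3 CPM, and rose by 1.42 ± 0.28 and 1.88 ± 0.38 with stage alone and by 1.02 and 1.10 with the length trend removed. With the slope as covariate these 2 did not pass.

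Lower with stage alone were Vcan and Fn1, a large proteoglycan and fibronectin, each with long mRNAs. Vcan measured 691, 642 and 629.9 CPM at E11 and 184, 181 and 272 CPM at E12 and remained lower with the length trend removed (-0.64), but not on transcript length (-0.23). Fn1 measured 463, 489 and 442 CPM at E11 and 197, 192 and 378 CPM at E12, was -0.09 with the length trend removed (adjusted p = 0.670), and lost its call in each single omission but that of E12c (adjusted p up to 0.109). Of the 30 matrix genes tested, 13 were higher and 2 lower with stage alone (median 0.45), 19 and 1 with the length trend removed (median 0.67) and 25 and 1 with the slope as covariate (median 0.90). The lower count was 10 without E12c and 1 in every other single omission.

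Contractile genes of smooth muscle and perivascular cells were higher at E12. Acta2, smooth muscle actin, measured 34.6, 40.3 and 35.5 CPM at E11 and 169, 178 and 139 CPM at E12 (log2 2.14 ± 0.15, edgeR adjusted p = 0.00137), and Tagln, an actin-binding protein, 13.0, 16.4 and 14.2 CPM at E11 and 94.0, 76.8 and 54.6 CPM at E12 (log2 2.37 ± 0.22). Cnn1, calponin, measured 1.00, 1.83 and 1.33 CPM at E11 and 9.48, 7.07 and 6.07 CPM at E12 and Actg2, the enteric smooth muscle actin, 0.853, 1.94 and 1.38 CPM at E11 and 7.83, 7.60 and 7.45 CPM at E12. All 4 were without overlap and higher in all 3 fits, and the E12 level of Actg2 was nearly the same in the 3 libraries. Kcnj8, a potassium channel subunit of pericytes, was higher with stage alone (0.81 ± 0.15) and with the length trend removed (0.48), while its partner Abcc9 and the pericyte receptor Notch3, with longer mRNAs, were lower in both (-1.08 ± 0.23 and -1.46 ± 0.40 with stage alone). None of the 3 passed with the slope as covariate. Notch3 lost its call without E11a, E11b or E12b (adjusted p up to 0.0774). The list of 10 genes had 4 higher and 2 lower, beside 27.6% and 27.3% of all genes. The counts were 4 and 2 with the length trend removed, and 3 and 0 with the slope as covariate. The single omissions each gave 4 higher and 1 to 3 lower, with 1 without E11a, E11b or E12b. Tnmd, a tendon and ligament membrane protein, measured 4.26, 4.04 and 4.35 CPM at E11 and 33.8, 28.3 and 18.1 CPM at E12 and was higher in all 3 fits.

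Endothelial genes were higher. Cldn5, a tight junction protein of vessels, measured 19.4, 18.9 and 18.7 CPM at E11 and 104, 78.0 and 45.9 CPM at E12 (log2 2.0 ± 0.28) and Plvap, a protein of endothelial diaphragms, 11.2, 14.2 and 11.8 CPM at E11 and 26.3, 25.8 and 25.4 CPM at E12 (log2 1.06 ± 0.14). Both passed in all 3 fits. Ramp2 and Emcn, an adrenomedullin receptor partner and a vessel sialomucin, were higher in the first 2 (1.35 ± 0.19 and 1.01 ± 0.22 with stage alone). Of 15 tested, 8 were higher and 0 lower (median 0.46), 7 and 0 with the length trend removed, and 6 and 0 with the slope as covariate, and 6 and 1 with totals alone. Without E12c, 5 were lower.

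Macrophage genes showed larger changes at lower levels. C1qa, a complement subunit, measured 4.86, 3.94 and 4.55 CPM at E11 and 33.1, 26.1 and 11.1 CPM at E12 (log2 2.39 ± 0.38), and Spi1, the myeloid transcription factor, 1.66, 2.91 and 2.15 CPM at E11 and 7.15, 7.52 and 5.85 CPM at E12 (log2 1.61 ± 0.25). Fcer1g, an Fc receptor subunit, and Aif1 rose by 1.83 ± 0.30 and 2.03 ± 0.50, the latter lost without E11a or E11b (adjusted p up to 0.0523). With the slope as covariate C1qa measured 0.38, Spi1 1.18, Fcer1g 0.44 and Aif1 -0.33, none past the threshold. Of 14 tested, 9 were higher and 0 lower (median 1.35), 12 and 1 with the length trend removed (median 0.78) and 3 and 0 with the slope as covariate (median 0.44). The list had a median of 1731.5 exonic bases, and 51.8% of all genes of 1206 to 1963 bases were higher with stage alone.

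Globin mRNAs, which are short, were higher in every E12 library and highest in E12a. Their share of counts was 0.608% ± 0.026 (SD, n = 3) at E11 and 1.85% ± 0.68 at E12. Hbb-bt, an adult beta globin, measured 103, 119 and 103 CPM at E11 and 743, 636 and 254 CPM at E12, and Hbb-bs, its near-identical neighbour, 67.9, 74.6 and 72.6 CPM at E11 and 495, 339 and 155 CPM at E12, so that reads may be shared between them. Hba-a1, an adult alpha globin, measured 452, 487 and 479 CPM at E11 and 3188, 2032 and 985 CPM at E12 and its copy Hba-a2 44.4, 59.8 and 57.8 CPM at E11 and 777, 593 and 147 CPM at E12. The embryonic globins Hbb-y and Hba-x, expressed in yolk sac red cells, rose by 1.95 ± 0.36 and 1.57 ± 0.27, and Hbb-bh1 by 1.26 ± 0.30. Of 8 globins tested, 7 were higher with stage alone (median 2.04), 6 with the length trend removed (median 1.10) and 0 with the slope as covariate (median 0.08).

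Embryonic globins of like exonic length were also compared with each other. Hbb-bh1, with 613 exonic bases, falls in the embryo before Hbb-y, with 633. The ratio of Hbb-bh1 to Hbb-y counts was 0.1126, 0.1041 and 0.1063 at E11 and 0.0679, 0.0591 and 0.0792 at E12, without overlap. The means were 0.108 ± 0.0044 (SD, n = 3) and 0.0688 ± 0.010. No test of the ratio is given, since an exact permutation test cannot go below p = 0.1 here. The ratio was 0.540 at E10.5, 0.0135 at E11.5, 0.0580 at E12.5 and 0.00900 at E13.5, so its order did not follow the order of stages between E11 and E12.5. Of 14 other red cell genes tested, 6 were higher and 5 lower, beside 27.6% and 27.3% of all genes. The counts were 2 and 5 with the length trend removed, 2 and 1 with the slope as covariate, and 2 and 5 with totals alone. Stage alone gave 1 higher without E11b, E11c or E12b, and 2 lower without E11a, E11b or E12b.

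Surface ectoderm genes were higher at E12. Krt15, a basal keratin, measured 6.47, 6.31 and 6.24 CPM at E11 and 24.6, 26.1 and 19.9 CPM at E12 (log2 1.89 ± 0.15, edgeR adjusted p = 0.00155), and Krt17, a keratin of early epidermis and periderm, 0.251, 0.323 and 0.460 CPM at E11 and 4.29, 4.41 and 2.93 CPM at E12 (log2 3.45 ± 0.34). Both were without overlap and higher in all 3 fits. Krt19 and Cldn7, of simple and embryonic epithelia, rose by 2.39 ± 0.33 and 2.04 ± 0.34 with stage alone and also with the length trend removed. In all, 11 of 18 tested ectodermal genes were higher and 0 lower (median 0.84), 12 and 1 with the length trend removed (median 0.68) and 7 and 0 with the slope as covariate (median 0.65). Single omissions gave 10 to 12 higher. The list had a median of 2075 exonic bases, and 45.7% of all genes of 1964 to 2619 bases were higher with stage alone.

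Several WNT ligands of ectoderm and dorsal neural tissue were higher as well. Wnt6 measured 7.02, 8.03 and 6.75 CPM at E11 and 31.3, 22.5 and 19.5 CPM at E12 (log2 1.75 ± 0.20) and Wnt4 7.42, 5.93 and 7.98 CPM at E11 and 24.5, 25.2 and 17.8 CPM at E12 (log2 1.66 ± 0.19), both in all 3 fits. Wnt3a and Wnt10a rose by 1.41 ± 0.18 and 1.62 ± 0.29 in the first 2 fits. Lgr5, an R-spondin receptor and WNT target, fell instead: it measured 9.98, 9.81 and 11.9 CPM at E11 and 1.43, 1.60 and 2.61 CPM at E12 (log2 -2.46 ± 0.25) and was lower in all 3 fits, at -1.54 with the slope as covariate. The co-receptor Lrp6, the receptor-removing ligase Znrf3 and the ligand Wnt5a, all long genes, were lower with stage alone (-1.09 ± 0.18, -0.83 ± 0.18 and -0.66 ± 0.19) and not with the length trend removed (-0.15, -0.34 and -0.17). Wnt5a lost its call without E11a, E11b, E11c or E12b (adjusted p up to 0.0789). Of 38 WNT genes tested, 19 were higher and 5 lower (median 0.40), 14 and 3 with the length trend removed, and 11 and 1 with the slope as covariate. Lower calls numbered 9 without E12c and 3 without E12b or any 1 E11 library.

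Fgf17 and Fgf8, ligands of the forebrain midline, were higher. Fgf17 measured 8.17, 9.86 and 11.1 CPM at E11 and 43.1, 36.9 and 33.5 CPM at E12 (log2 1.96 ± 0.17) and was higher in all 3 fits, as was Spry1, an FGF-induced feedback inhibitor, at 18.9, 23.3 and 23.6 CPM at E11 and 53.1, 51.4 and 45.2 CPM at E12. Fgf8, a ligand of the anterior forebrain and facial ectoderm, measured 3.31, 2.70 and 2.97 CPM at E11 and 14.1, 9.88 and 6.01 CPM at E12, higher in the first 2 fits (log2 1.73 ± 0.31) and 0.28 in the third (adjusted p = 0.672). Fgf10, a mesenchymal ligand, was lower in the first 2 fits (-1.01 ± 0.24 with stage alone) and not in the third (-0.62, adjusted p = 0.597), at 2.41 CPM or less. Fgf3 was higher and Fgf9 and Fgfr3 lower with stage alone (1.07 ± 0.27, -0.78 ± 0.26 and -0.80 ± 0.20), none of them with the length trend removed. Their calls were lost without E11a (adjusted p up to 0.0553) for Fgf3, in each single omission (adjusted p up to 0.142) for Fgf9 and without E11b (adjusted p up to 0.0502) for Fgfr3. Of 24 tested, 9 were higher and 3 lower, beside 27.6% and 27.3% of all genes. The counts were 9 and 1 with the length trend removed, 5 and 0 with the slope as covariate, and 4 and 3 with totals alone. Without E11a, E11c or E12b 5 were higher, without E11b 1 was lower, and without E12c 7 were lower.

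Of 31 genes of the BMP and TGF-beta pathway tested, 13 were higher and 5 lower with stage alone, 10 and 2 with the length trend removed, 6 and 1 with the slope as covariate, and 6 and 6 with totals alone. Tgfb1, a ligand, measured 5.02, 5.39 and 6.14 CPM at E11 and 14.1, 11.7 and 12.4 CPM at E12 (log2 1.20 ± 0.16) and was higher in all 3 fits. The BMP target genes Id1, Id3 and Id4 rose by 1.19 ± 0.23, 1.15 ± 0.23 and 1.02 ± 0.17, and by 0.41, 0.56 and 0.99 with the length trend removed. With the slope as covariate they measured 0.03, 0.05 and 0.47, none past the threshold. The receptors Tgfbr1, Bmpr2, Bmpr1b and Bmpr1a were lower (log2 -0.95 ± 0.20, -0.91 ± 0.16, -0.81 ± 0.18 and -0.38 ± 0.12). Bmpr2, with 17983 exonic bases, and Bmpr1a did not pass with the length trend removed (0.30 and -0.03), and Bmpr1a lost its call in each single omission but that of E12c (adjusted p up to 0.131). Higher calls numbered 7 without any 1 E11 library, and lower calls numbered 8 without E12c and 3 without E12b or any 1 E11 library.

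**Figure D4:**
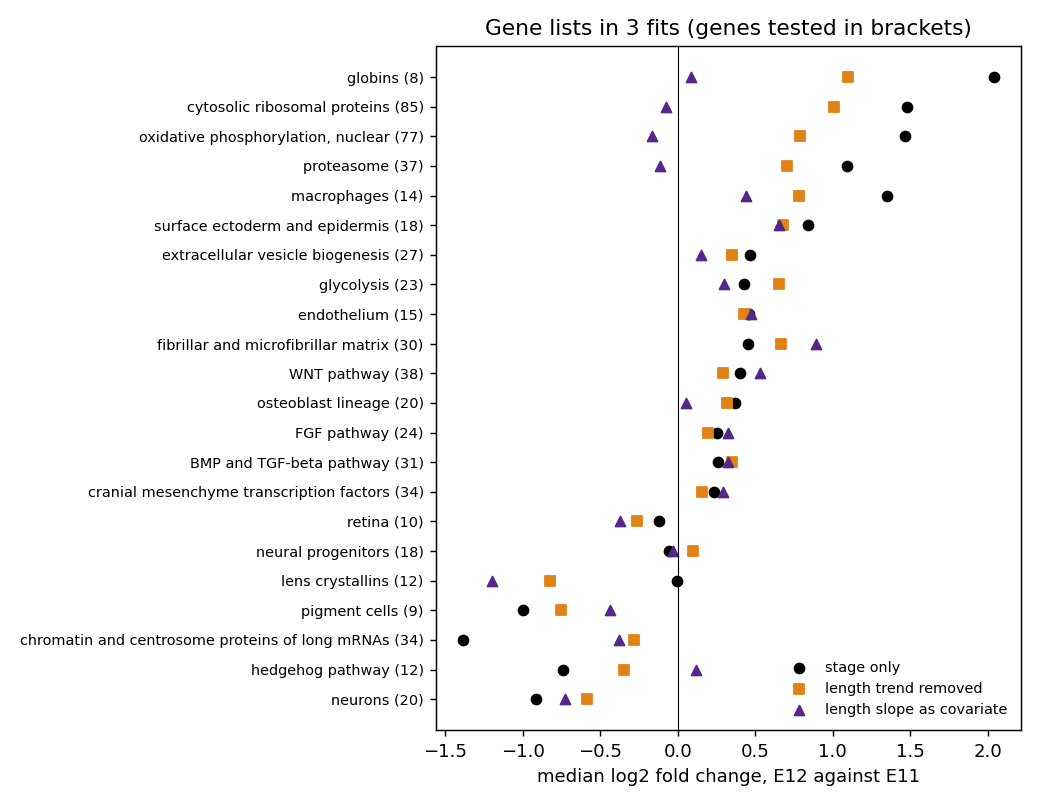
Median log2 fold change of the tested members of 22 gene lists (vertical axis, number tested in brackets) in 3 fits: stage only (circles), length trend removed (squares) and length slope as covariate (triangles). Globins, ribosomal, respiratory chain and proteasome genes lie at 1.09 to 2.04 in the first fit and at -0.16 to 0.08 in the third, while matrix genes go from 0.45 to 0.90.

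Housekeeping genes with short mRNAs were higher with stage alone. Of 85 cytosolic ribosomal protein genes tested, 81 were higher and 0 lower (median 1.48), and their share of counts was 3.01% ± 0.064 (SD, n = 3) at E11 and 9.55%, 7.28% and 4.75% in E12a, E12b and E12c. Rps28 measured 14.2, 13.7 and 13.9 CPM at E11 and 159.5, 118 and 32.2 CPM at E12 and Rpl14 90.0, 89.8 and 93.9 CPM at E11 and 822, 449 and 187 CPM at E12, each in the order of the length slopes. Rplp2 and Rpl37a rose by 2.34 ± 0.40 and 2.34 ± 0.41. Processed copies of such genes are common in the genome, and reads may be shared with them. Removal of the length trend left 70 higher (median 1.01), and with the slope as covariate 3 higher and 1 lower (median -0.08).

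Nuclear genes of the respiratory chain followed the same course, with 71 of 77 higher (median 1.46), 65 with the length trend removed (median 0.79) and 2 higher and 2 lower with the slope as covariate (median -0.16). Atp5e, a subunit of ATP synthase, measured 83.8, 93.6 and 85.2 CPM at E11 and 774, 432 and 200.04 CPM at E12, Ndufa2, of complex I, 71.0, 86.1 and 75.5 CPM at E11 and 551, 353 and 148 CPM at E12, and Atp5k 40.5, 48.4 and 40.6 CPM at E11 and 295, 192 and 80.7 CPM at E12. Cox6c2, a member of the list that is annotated as a processed pseudogene, at under 5 CPM, lost its call without E11a, E11b, E11c or E12b (adjusted p up to 0.0696). Mitochondrial ribosomal proteins had 71 of 77 higher and proteasome subunits 34 of 37, with none lower in either list, 60 and 33 higher with the length trend removed, and with the slope as covariate 1 and 0 higher and 3 and 0 lower.

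Chromatin and centrosome proteins encoded by long mRNAs made the opposite pattern, with 31 of 34 lower and 0 higher (median -1.39). The list holds long mRNAs by its definition, with a median of 15979 exonic bases. Of all genes in the longest of the 10 length groups, 69.2% were lower and 2.82% higher with stage alone. The direction of the list can therefore not be told apart from that of long genes. Kmt2a, a histone methyltransferase with 16670 exonic bases, measured 279, 277 and 244 CPM at E11 and 54.2, 54.9 and 93.8 CPM at E12, and its relative Kmt2c 170.1, 165 and 153 CPM at E11 and 35.0, 30.6 and 58.1 CPM at E12. Srcap, a chromatin remodeller, measured 31.2, 30.4 and 27.7 CPM at E11 and 3.39, 2.89 and 8.25 CPM at E12 and Dst, a giant cytoskeletal linker with 41619 exonic bases, 229, 244 and 210.2 CPM at E11 and 27.9, 31.0 and 76.4 CPM at E12. E12c was the least changed for each of the 4. Removal of the length trend left 15 lower and 2 higher (median -0.28), and with the slope as covariate 13 lower and 1 higher (median -0.38). On transcript length 11 were lower and 8 higher (median -0.02). Kmt2a measured -0.90 with the length trend removed and -1.02 with the slope as covariate, lower in both.

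Among abundant genes of the shortest length group, those with the smallest p were Myl9, Ifitm2, S100a11 and Lgals1. Myl9, a myosin light chain, measured 69.0, 69.6 and 69.4 CPM at E11 and 318, 277 and 190.2 CPM at E12 and Lgals1, galectin-1, 176, 199.6 and 185 CPM at E11 and 1108, 909 and 499 CPM at E12. Both were higher in all 3 fits, at 1.01 and 0.73 with the slope as covariate, as was S100a11 (0.81). Ifitm2 was higher with stage alone (1.20 ± 0.14) and with the slope as covariate (0.72). It did not pass with the length trend removed (0.35, edgeR adjusted p = 0.0660). Of the longest group, Zbtb20, Dmxl2 and Nfat5 were lower with stage alone (-2.47 ± 0.18, -1.86 ± 0.16 and -2.22 ± 0.19) and in the other 2 fits. Xist was the other gene of that set.

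Lens genes were present at both stages. The lens is an ectodermal derivative beside the frontal region whose fibre cells fill with crystallins, and the MAF factors bind crystallin promoters there. The 120 bases before the RefSeq start of 4 crystallin genes are shown, since these carry the lens signal at both stages. They are the 4 most abundant of the 5 crystallin promoters, of 15 matched in RefSeq (GRCm38.p6), that hold TGCTGA, a core word of MAF recognition sites, or its reverse complement TCAGCA. That word occurred in 8.18% of 32851 promoters over the same window, and the TATA word TATAAA in 3 of the 15 and in 4.19% of all. Capitals mark the MAF word and, where it is present, the TATA word, and a match of letters is no evidence of binding. The windows are chr17:31677811-31677930, plus strand for Cryaa, chr11:77725294-77725413, minus strand for Cryba1, chr5:112255700-112255819, plus strand for Crybb1 and chr5:113081585-113081704, minus strand for Crybb3. The RefSeq starts can differ from those of GENCODE. The Cryaa window lies inside the GENCODE gene, which starts at 31677807, and the Crybb1 window runs past its GENCODE start of 112255815.
Cryaa: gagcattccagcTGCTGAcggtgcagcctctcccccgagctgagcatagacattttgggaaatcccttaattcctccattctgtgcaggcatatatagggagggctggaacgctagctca
Cryba1: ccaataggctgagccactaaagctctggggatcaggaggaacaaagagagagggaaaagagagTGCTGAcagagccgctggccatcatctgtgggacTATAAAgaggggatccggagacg
Crybb1: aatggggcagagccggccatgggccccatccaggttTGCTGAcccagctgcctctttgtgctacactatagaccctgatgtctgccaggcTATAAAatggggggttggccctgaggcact
Crybb3: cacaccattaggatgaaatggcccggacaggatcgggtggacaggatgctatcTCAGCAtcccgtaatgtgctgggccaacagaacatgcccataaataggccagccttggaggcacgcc

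Cryaa, alpha A crystallin, measured 34.0, 39.2 and 34.2 CPM at E11 and 25.9, 21.7 and 14.2 CPM at E12. All E12 libraries lay below all E11 libraries, in the order of the length slopes, with a log2 change of -0.80 ± 0.22 (edgeR adjusted p = 0.0174) that did not pass without E11b or E12b (adjusted p up to 0.0662). It was -1.29 with the length trend removed (adjusted p = 0.00136) and -1.85 with the slope as covariate. Cryba1, a beta crystallin, measured 21.8, 24.4 and 21.6 CPM at E11 and 25.1, 17.3 and 12.7 CPM at E12, overlapping between stages. It did not pass with stage alone (-0.30 ± 0.24, adjusted p = 0.3002), was lower without E12a (adjusted p down to 0.0262), and was lower with the length trend removed (-0.96, adjusted p = 0.00254). Crybb3 measured 16.3, 19.5 and 16.9 CPM at E11 and 26.3, 18.2 and 10.9 CPM at E12 and overlapped, with 0.07 ± 0.29 and -0.36 in the first 2 fits, neither past the threshold, and was lower in the third (-1.47) and on transcript length (-0.82).

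Crybb1, Cryba4 and Cryab were higher with stage alone. Crybb1 measured 4.61, 3.29 and 4.19 CPM at E11 and 8.28, 7.22 and 5.80 CPM at E12 (log2 0.81 ± 0.21), and with the length trend removed its change was 0.03 (adjusted p = 0.906). Cryba4 and Cryab went from 1.08 ± 0.31 and 1.09 ± 0.28 to 0.22 and 0.42, neither past the threshold. The calls were lost without E11b, E11c or E12b (adjusted p up to 0.0614) for Crybb1, without E11a, E11b, E11c or E12b (adjusted p up to 0.0715) for Cryba4 and without E11b or E11c (adjusted p up to 0.0529) for Cryab. Mip, the lens fibre channel, measured 2.76, 3.83 and 2.92 CPM at E11 and 1.35, 2.43 and 2.61 CPM at E12 and did not pass with stage alone, but was lower once the trend was removed (-0.96, adjusted p = 0.0433). Of 12 crystallins tested, 3 were higher and 1 lower (median 0.00), but 0 higher and 6 lower with the length trend removed (median -0.82) and 0 and 4 with the slope as covariate (median -1.20). No crystallin was higher without E11b or E11c and 1 was without E12b, while none was lower without E11b or E12b and 2 were without E12a. Their summed level was 92.8 to 101 CPM at E11 and 58.0 to 115 CPM at E12.

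Other lens genes were called in both directions. Prox1, a factor of fibre differentiation also found in lymphatic and neural cells, measured 29.9, 26.7 and 26.7 CPM at E11 and 8.43, 7.60 and 10.4 CPM at E12 and was lower in all 3 fits (log2 -1.65 ± 0.16, adjusted p = 0.00160). Maf, the lens fibre factor also found in other tissues, was higher: it measured 18.3, 21.1 and 18.7 CPM at E11 and 36.3, 30.02 and 31.1 CPM at E12 (log2 0.74 ± 0.13). Bfsp2 and Hsf4, a beaded filament protein and a lens heat shock factor, were called higher and lower (1.16 ± 0.35 and -1.18 ± 0.39) at under 5 CPM. Bfsp2 lost its call without E11b, E11c, E12a or E12b (adjusted p up to 0.0864) and Hsf4 in each single omission (adjusted p up to 0.125). Foxe3 and Crygs had too few counts to test, at 14 counts each at E11 and 16 and 13 at E12.

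Of 10 retinal genes tested, 3 were higher and 3 lower with stage alone, shares close to the 27.6% and 27.3% of all genes, 3 and 3 with the length trend removed, and 2 and 3 with the slope as covariate. Lhx2, an eye field factor also found in forebrain, measured 219.6, 242 and 228 CPM at E11 and 303, 335 and 402 CPM at E12 (log2 0.59 ± 0.15), and Rlbp1, a retinoid-binding protein, 6.97, 8.89 and 9.10 CPM at E11 and 18.0, 20.9 and 15.3 CPM at E12 (log2 1.12 ± 0.18). Hes1, a Notch target of progenitors, rose by 1.52 ± 0.28. With the slope as covariate Hes1 measured 0.03 and Rlbp1 0.71, neither past the threshold. Six6, a factor of eye and hypothalamus, measured 6.77, 6.63 and 5.32 CPM at E11 and 2.71, 2.43 and 1.60 CPM at E12 (log2 -1.49 ± 0.25), and Neurod4, a neurogenic factor, was lower too (log2 -1.13 ± 0.19). The stages did not overlap for the genes of the list that passed with stage alone, and Lhx2 lost its call without E11a or E11c (adjusted p up to 0.0652). Of 9 pigment cell genes, 6 were lower, among them the melanosome transporters Oca2 and Slc24a5 and tyrosinase, Tyr (-2.16 ± 0.41, -1.27 ± 0.23 and -1.17 ± 0.22), and 2 higher, Dct and Rab38 (0.96 ± 0.20 and 0.90 ± 0.20). Slc45a2 fell too, at under 2 CPM (-1.63 ± 0.47), and lost its call without E11a, E11c, E12a or E12b (adjusted p up to 0.0845). Lower calls numbered 3 without E11a or E11c, and the pigment cell list had 7 lower and 1 higher with the length trend removed and none passing with the slope as covariate.

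Genes of glycolysis and citrate handling bear on the title of the series. Aldoc, a brain-enriched aldolase, measured 10.2, 11.8 and 11.05 CPM at E11 and 34.9, 40.1 and 38.2 CPM at E12 (log2 1.78 ± 0.13), with tight E12 values and a rise in all 3 fits. Pfkp, a phosphofructokinase with 13401 exonic bases, fell in all 3 and measured 68.1, 71.2 and 65.7 CPM at E11 and 13.2, 15.9 and 24.2 CPM at E12 (log2 -1.94 ± 0.22). Pgk1, Tpi1 and Ldha rose by 1.31 ± 0.28, 1.08 ± 0.19 and 1.00 ± 0.18 in the first 2 fits. Gapdh, whose reads may be shared with many processed copies, was called lower (-0.55 ± 0.20) but lost the call in each single omission but that of E12c (adjusted p up to 0.149). The glycolysis list had 12 higher and 2 lower of 23, 15 and 2 with the length trend removed, and 6 and 1 with the slope as covariate. Its lower calls numbered 4 without E12c and 1 in every other single omission.

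Of 10 citrate-handling genes tested, 3 were higher and 0 lower, beside 27.6% and 27.3% of all genes. The 3 were the mitochondrial citrate carrier Slc25a1, the dehydrogenase Idh2 and the zinc carrier Slc39a1, at 0.86 ± 0.17, 0.80 ± 0.14 and 0.53 ± 0.11. Slc25a1 measured 44.0, 52.6 and 50.4 CPM at E11 and 102, 94.6 and 70.0 CPM at E12. With the length trend removed Slc39a1 no longer passed (0.15, adjusted p = 0.274), and with the slope as covariate none of the 3 did. Slc13a5, the plasma membrane citrate transporter of bone, had 18 counts in all at E11 and 9 at E12, too few to test. Without E12c, 3 genes of the list were lower.

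Among 27 genes of vesicle formation, 16 were higher and 3 lower, 13 and 2 with the length trend removed and 4 and 1 with the slope as covariate. Anxa2, a membrane-binding annexin, measured 184, 199 and 188 CPM at E11 and 713, 684 and 404 CPM at E12 (log2 1.66 ± 0.23) and rose in all 3 fits. Cd63, a tetraspanin of vesicles, measured 60.4, 61.3 and 61.5 CPM at E11 and 204, 170.5 and 109.7 CPM at E12, and the ESCRT subunits Chmp2a and Chmp4b rose by 1.39 ± 0.31 and 1.17 ± 0.22 with stage alone. Smpd3, a sphingomyelinase also active in bone, was lower with Hspa8 and Stam (log2 -0.64 ± 0.15, -0.61 ± 0.19 and -0.36 ± 0.11). Hspa8 lost its call without E11a, E11b, E11c or E12b (adjusted p up to 0.0937) and Stam in each single omission but that of E12c (adjusted p up to 0.124). Higher calls numbered 9 without E11a or E11c and 10 without E11b or E12b, and lower calls 1 without E12b or any 1 E11 library.

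Xist, the long noncoding RNA of the inactive X chromosome, was 7.29-fold lower at E12. It measured 1812, 1579 and 1630.4 CPM at E11 and 211, 193 and 285 CPM at E12 (log2 -2.87 ± 0.20, edgeR adjusted p = 0.00137), and -1.70 with the length trend removed and -2.28 with the slope as covariate, lower in both. Its exons overlap those of its antisense partner Tsix. The Y-linked genes Ddx3y, Eif2s3y, Kdm5d and Uty were detected in all 6 libraries and did not pass with stage alone: Ddx3y measured 22.2, 20.2 and 22.9 CPM at E11 and 26.6, 24.8 and 32.0 CPM at E12 and Eif2s3y 33.2, 24.4 and 31.2 CPM at E11 and 56.7, 49.6 and 30.7 CPM at E12. All 4 were higher once the length trend was removed (0.55, 0.65, 0.47 and 0.46), and Ddx3y was the 1 of them that also passed on transcript length (0.77) and with the slope as covariate (0.73). With stage alone, leaving out E12c gave adjusted p down to 8.53e-04 for Kdm5d, 0.0307 for Uty and 1.62e-04 for Eif2s3y, the first 2 lower and the third higher. The share of XX and XY cells in each library was not tested.

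The largest rises called both with stage alone and with the length trend removed, at 5 CPM or more, were mostly short genes. Lst1, a small leukocyte protein, measured 0.802, 1.35 and 0.665 CPM at E11 and 9.41, 6.46 and 3.03 CPM at E12, S100a6, a calcium-binding protein of fibroblasts, 4.56, 5.66 and 5.63 CPM at E11 and 50.7, 34.9 and 17.2 CPM at E12, and Nupr1, a stress-induced nuclear protein, 0.802, 1.19 and 0.767 CPM at E11 and 7.45, 6.92 and 3.14 CPM at E12. Usp50 and Tmsb15b1 rose by 2.83 ± 0.59 and 2.65 ± 0.49. Mir703 gave 3.35 ± 0.82, a call lost without E11a (adjusted p up to 0.0511), in counts over a 109-base annotation of a miRNA precursor that polyA RNA is not made to measure. Hba-a2, Tnmd, Actg2 and Cnn1 complete the set. Of the 10, Tnmd, Actg2, Cnn1 and S100a6 were also higher with the slope as covariate.

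The largest falls were led by Nkx2-2. Srrm4os, a noncoding gene across the neuronal splicing factor Srrm4, measured 11.53, 11.8 and 9.62 CPM at E11 and 0.0753, 0.152 and 0.585 CPM at E12 and Lcor, a nuclear receptor corepressor, 73.0, 73.9 and 66.9 CPM at E11 and 2.41, 3.04 and 15.4 CPM at E12. Ttn, titin, with 117334 exonic bases, measured 8.17, 8.25 and 7.11 CPM at E11 and 0.452, 0.380 and 0.958 CPM at E12, and its change of -3.63 ± 0.32 became -1.14 with the length trend removed. Ryr3, Stxbp5l, Kcna3 and Tnfrsf18, a calcium release channel, a syntaxin-binding protein, a potassium channel and a receptor of the tumour necrosis factor family, were lower (log2 -3.25 ± 0.42, -3.54 ± 0.50, -3.40 ± 0.78 and -3.68 ± 0.53). Cpne1, which shares exons with Rbm12, gave -3.36 ± 0.62. Among the falls named here, Nkx2-2 and Ttn were also lower with the slope as covariate.

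The neighbouring stages give a place for these levels. With the 33 libraries on 1 scale, mean CPM is listed in the order E10.5, E11, E11.5, E12 and E12.5. No length trend was removed from these levels. In the same order, the mean length slopes against the other stages were 0.033, 0.059, 0.118, -0.240 and 0.049. Shh measured 75.8, 20.5, 5.35, 3.05 and 1.25, Foxa2 18.1, 4.50, 0.562, 0.334 and 0 and Ptch1 219.5, 146, 75.4, 40.8 and 54.7. For Shh and Foxa2 the E12 level lay between those of E11.5 and E12.5, on a descent that ran through all 5 stages. Isl1 measured 12.3, 45.9, 39.5, 15.2 and 11.2, with E12 again between E11.5 and E12.5. Dcx, by contrast, measured 118, 402, 561, 127 and 220.3: it rose to E11.5 and was lower at E12 than at either neighbour.

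For many of the genes named the E12 level, without length correction, stood outside those of both neighbours. Msx2 measured 11.9, 13.0, 6.37, 44.8 and 14.3, Twist2 3.54, 7.40, 8.66, 24.9 and 7.65 and Acta2 19.6, 37.3, 49.1, 162 and 68.1. Wnt6 measured 3.54, 7.36, 10.7, 24.4 and 6.22 and Fgf17 14.1, 9.83, 7.23, 37.7 and 26.4. In each of these 5 the E12 mean was above both E11.5 and E12.5. Kmt2a measured 246, 270.2, 274, 67.9 and 244, Rps28 21.4, 14.1, 15.1, 102 and 19.7 and Hba-a2 32.7, 54.7, 59.0, 502 and 69.8, so that the means of E11, E11.5 and E12.5 lay near one another and that of E12 apart. Lgr5 measured 11.3, 10.7, 8.43, 1.89 and 8.07 and Srrm4os 4.86, 11.1, 14.4, 0.274 and 7.997, again with E12 apart.

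**Figure D5:**
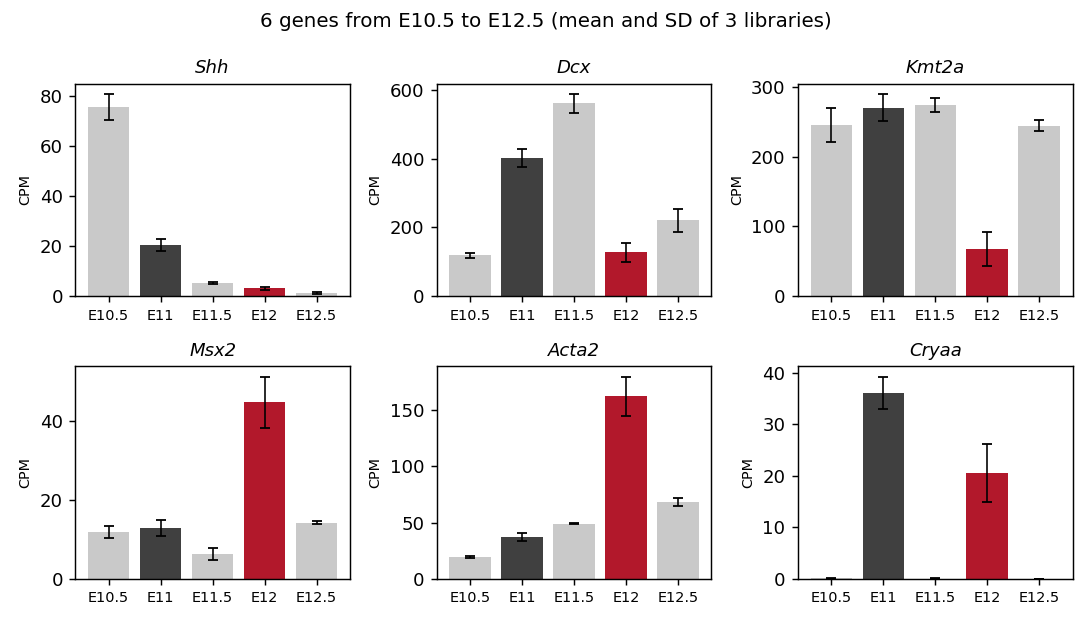
Level in CPM (vertical axis, linear from 0) of 6 genes at E10.5, E11, E11.5, E12 and E12.5 (horizontal axis), with bars for the mean and whiskers for the SD of 3 libraries. No length trend was removed from these levels. Shh falls through the stages, E12 stands apart from both neighbours for Dcx, Kmt2a, Msx2 and Acta2, and Cryaa is high at E11 and E12 among these 5 stages.

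Matrix genes varied in this. Col1a1 measured 112, 232, 450.2, 416 and 262 and Dcn 3.85, 19.5, 91.5, 51.6 and 55.9, with E11.5 above E12, while Vcan measured 402, 662, 633, 213 and 672 and Fmod 2.55, 5.46, 12.2, 15.8 and 4.25, with E12 outside both neighbours. Krt15, the basal keratin, measured 0.188, 6.42, 21.2, 23.5 and 8.29. Several lens crystallins alternated between stages: Cryaa measured 0.103, 36.2, 0.0346, 20.5 and 0, Cryba1 0.508, 22.9, 0.109, 18.3 and 0.0564 and Crybb1 0.190, 4.08, 0.992, 7.08 and 0.584, high at E11 and E12 and near 0 or low at the stages on either side, whereas Cryab measured 0.938, 2.46, 2.01, 5.17 and 1.94, with E11.5 near E11. Whether lens entered some dissections and not others was not tested.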

How the data were processed

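RNA sequencing of polyA RNA from the 3 E11 and 3 E12 libraries was compared. The authors deposited unnormalized whole-number counts for every gene, with a column for each library, per the file headers. The submitters' processing notes name cutadapt 1.9.1, HISAT2 2.0.1, HTSeq 0.6.1 and the genome build GRCm38. No annotation release, strand setting or library kit is named in the sources used here, so reads of overlapping genes may not be told apart: exons of 60 of the 177 genes named and tested overlap another gene in GENCODE M21. The exonic length of each gene, in bases, was deposited with the counts. Columns were tied to stages by name, and the letters a, b and c could not be tied to the labels' replicate numbers.

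Of 55401 genes, 55141 had a symbol, and 17361 passed edgeR's filterByExpr, which kept 99.81% to 99.88% of counts. The main test was edgeR 4.0.16's quasi-likelihood test (robust) with TMM scaling, stage as the only term and Benjamini-Hochberg adjustment over all genes tested, at 0.05. It had 4 residual degrees of freedom and a common biological coefficient of variation of 0.194. For the trend removal, log2 CPM minus the mean over all libraries fitted was smoothed on log2 exonic length (lowess, span 0.3). The smoothed trend of each library was entered as an offset. Levels per library are CPM over TMM-scaled totals. No libraries held identical counts, and all pairs differed by more than sampling noise. DESeq2 1.42.0, limma 3.58.1 (voom), other scalings, filters, a replicate block and leaving out libraries were alternatives, and scripts were tested on simulated data. Alternatives chosen after seeing the data were transcript length in place of exonic length, the slope covariate, and the trend removed with E12a left out.

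Genes named are the 10 largest rises and falls called with and without the length trend (mean of at least 5 CPM, stages not overlapping, no predicted, pseudogene, ribosomal or mitochondrial genome genes), up to 4 passing members for each list and direction, a fixed set of bone, lens, globin and sex genes, and the 4 genes of smallest p in the shortest and longest of 10 length groups (at least 50 CPM). Gli1, Smo, Tubb3, Col1a2, Col3a1, Crybb3, Eif2s3y, Kdm5d and Uty were added after their values were seen, and some genes that the rule names are not reported here. The comparison and the gene lists were chosen with earlier results of these data known.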

Additional observations from a re-analysis of the deposited data

Results flagged for a closer look

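A length trend also appeared outside the libraries compared. Set against the other stages, library E13.5c had a slope of -0.142 on the log2 scale per doubling of exonic length, below the mildest E12 library at -0.106. It was the only 1 of the 27 libraries of stages other than E11 and E12 to lie below that value, and the other libraries of its stage did not share it, with a highest slope at E13.5 of 0.0646. The cause was not tested.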

How the results depend on the processing

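Of the 162 named genes called with stage alone, 133 kept the call in all 6 single omissions and 29 lost it in at least 1. Over the single omissions, genes higher ran from 2891 to 6278 and genes lower from 3018 to 6396, and the difference in length slope from -0.338 to -0.223. Scaling by totals alone gave 3181 higher, the 2-fold threshold 2241 higher and 2483 lower, the slope covariate 1015 higher and 913 lower, and the trend removed without E12a 3106 lower. The slope difference was -0.548 among genes with a mean of at least 10 CPM. The replicate block on the column letter gave 4050 higher and 4282 lower. Same-letter libraries did not deviate together (correlations of -0.03, 0.054 and -0.068), and different-letter pairs ran from -0.073 to 0.07. No pairing by letter was seen, but 3 libraries for each stage are too few to decide whether the letters pair the libraries. DESeq2's size factors, DESeq2, limma voom, both filters and all 33 libraries moved neither count by over 1.5 times, and gave from 4454 to 6268 higher and from 4371 to 6585 lower.

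Among named genes past the threshold in either of the fits compared, changes of sign came only with a length correction, and the cause was not tested. The values are log2 changes of E12 against E11. With the length trend removed: Stam 0.20, Zeb2 0.049, Kdm5d 0.47, Bmpr2 0.30 and Uty 0.46. With the trend removed and all 33 libraries: Stam 0.19, Zeb2 0.014, Kdm5d 0.45, Bmpr2 0.25 and Uty 0.45. With the trend removed and E12a left out: Fn1 0.013, Stam 0.19, Zeb2 0.15, Crybb3 -0.57, Kdm5d 0.66, Bmpr2 0.042 and Uty 0.60. On transcript length: Bmpr1a 0.30, Wnt5a 0.13, Fn1 0.071, Stam 0.15, Crybb1 -0.020, Crybb3 -0.82, Lrp6 0.00527 and Bmpr2 0.57. With the slope covariate: Smo 0.90, Ndufa2 -0.20, Hspa8 0.00713, Fabp7 -0.42, Wnt5a 0.012, Ebf2 0.044, Aif1 -0.33, Rpl14 -0.24, Fn1 0.26, Usp50 -0.21, Spp1 -0.15, Crybb3 -1.47, Dlx6 -0.17, Bfsp2 -0.10, Chmp2a -0.32, Notch3 0.34, Alx4 0.88, Kcna3 0.45, Atp5k -0.22, Hbb-bh1 -0.25, Emcn -0.022, Gapdh 0.25, Pgk1 -0.12, Cox6c2 -1.14, Cryba4 -0.27, Rps28 -0.15, Hba-a2 -0.00521 and Mir703 -1.21. A low level limits genes with a mean under 1 CPM, such as Phex and Hsf4, and genes with too few counts, such as Ibsp and Slc13a5, were not tested.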
